A study of Mus musculus with 11 samples.

Results

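Potassium channel genes were followed in forebrain excitatory neurons of young mice through the second and the third postnatal week. They were chosen by name alone, as all genes whose symbol begins with Kcn, with 5 antisense or host transcripts left out. The rule found 94 genes among 77179 gene IDs, of which 72 reached 1 TPM in at least 2 of the 11 libraries and are described here. TPM, a gene's share of a library's transcripts, is corrected for transcript length and scaled to the same total in every library. All libraries came from cortex and hippocampus, with 3 replicates per age for ribosome-bound RNA and 2 for whole tissue. The ribosome-bound RNA (IP) was taken at P7, P14 and P21 (postnatal days 7, 14 and 21) from NEX-Cre;Rpl10aeGFP/eGFP mice, the NEX-Cre parent being on a C57BL/6J background. In these mice Cre expressed from the NEX (Neurod6) gene of excitatory neurons switches on eGFP-Rpl10a, a ribosomal protein tagged with GFP, and anti-GFP beads collect the tagged ribosomes. Whole-tissue RNA (input) was taken at P7 only. Input replicate 1 has the same genotype, while input replicate 2 is Rpl10aeGFP/eGFP without Cre, and all groups carry the tagged Rpl10a allele. The sources used here give neither the sex nor the number of animals per library.

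Potassium channels let potassium leave the cell and so set the resting potential, end action potentials and limit repetitive firing. Voltage-gated (Kv) channels open on depolarisation, inward rectifiers (Kir) and 2-pore (K2P) channels act near rest, and BK and SK channels respond to calcium. Many Kv and BK channels carry auxiliary subunits that change their gating or their transport to the membrane. In the forebrain of young rodents the second and the third postnatal week are known as a time when pyramidal neurons acquire faster action potentials and a lower input resistance.

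The 2 input libraries had 17784 and 17793 genes at 1 TPM or more, and the 9 IP libraries 15154 to 15658. TPM keeps no record of read depth, so precision rests on the spread between replicates alone. Correlations between libraries of a group were 0.984 to 0.994 across genes on the log2 scale, where genes are not independent replicates. Excitatory neuron markers summed to 1045 to 1169 TPM in the input and to 1046 to 1272, 2584 to 2812 and 3025 to 3219 TPM in the IP at P7, P14 and P21. All 8 inhibitory neuron markers, all 8 astrocyte markers and all 7 microglia markers were lower in the P7 IP than in the input. Of all genes tested, 51.1% were lower. The IP still held RNA of these cell types, and its amount moved with age. Inhibitory neuron markers summed to 49.3 to 58.2 TPM at P7, 55.7 to 62.9 TPM at P14 and 71.4 to 87.7 TPM at P21 (input 682 to 793 TPM). Astrocyte markers summed to 41.9 to 63.2, 113 to 132 and 145 to 180.3 TPM (input 659.9 to 722 TPM), and oligodendrocyte markers to 30.9 to 34.5, 290.1 to 393 and 486 to 697 TPM (input 183 to 249 TPM). Microglia markers summed to 6.29 to 10.3, 17.3 to 22.7 and 17.0 to 24.7 TPM (input 140.0 to 178 TPM). Of these marker genes only Opalin, an oligodendrocyte gene, was at 0 in an IP library, P7 replicate 3. The part of these other cell types in the changes with age below was not tested. In bulk RNA, fewer cells of a type and less RNA per cell cannot be told apart.

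Potassium channel RNA increased in the IP mainly between P7 and P14. Summed over the 94 genes it was 1404 to 1574 TPM at P7, 2245 to 2266 TPM at P14 and 2303 to 2415 TPM at P21, so the ages did not overlap and the larger step was the first. Among the 72 described genes, 47 rose and 8 fell from P7 to P14, beside 26.7% and 22.8% of all 19008 genes tested (49.5% in either direction). The median change was 0.41 for the channel genes and 0.034 for all genes, as differences of log2(TPM + 1). From P14 to P21, 12 rose and 14 fell (background 8.53% and 19.7%), with medians of -0.018 and -0.075. Over the whole interval from P7 to P21, 39 rose and 13 fell (background 27.3% and 32.6%, 59.9% in either direction), with medians of 0.32 and -0.041. In the first and the last of these comparisons, the rises included Kcnh5 and the falls Kcnmb2 and Kcnrg. These genes passed the minimum only through libraries of the ages where they were high, so the filter favoured their calls. Calls are at a limma adjusted p below 0.05, Benjamini-Hochberg over all genes tested, and every change below is on the log2(TPM + 1) scale, which understates the change of genes at low TPM, with its standard error. The labels call the IP libraries of an age biological replicates. The 3 age comparisons share libraries and are not independent of each other. The P14 to P21 split depended on the scaling, with 20 higher and 10 lower under median-of-ratios scaling and 18 and 10 under quantile normalisation. The count of 14 was 9 without P14 IP replicate 2, 6 without P14 IP replicate 3, 8 without P21 IP replicate 1 and 8 with no filter on low values.

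**Figure D1:**
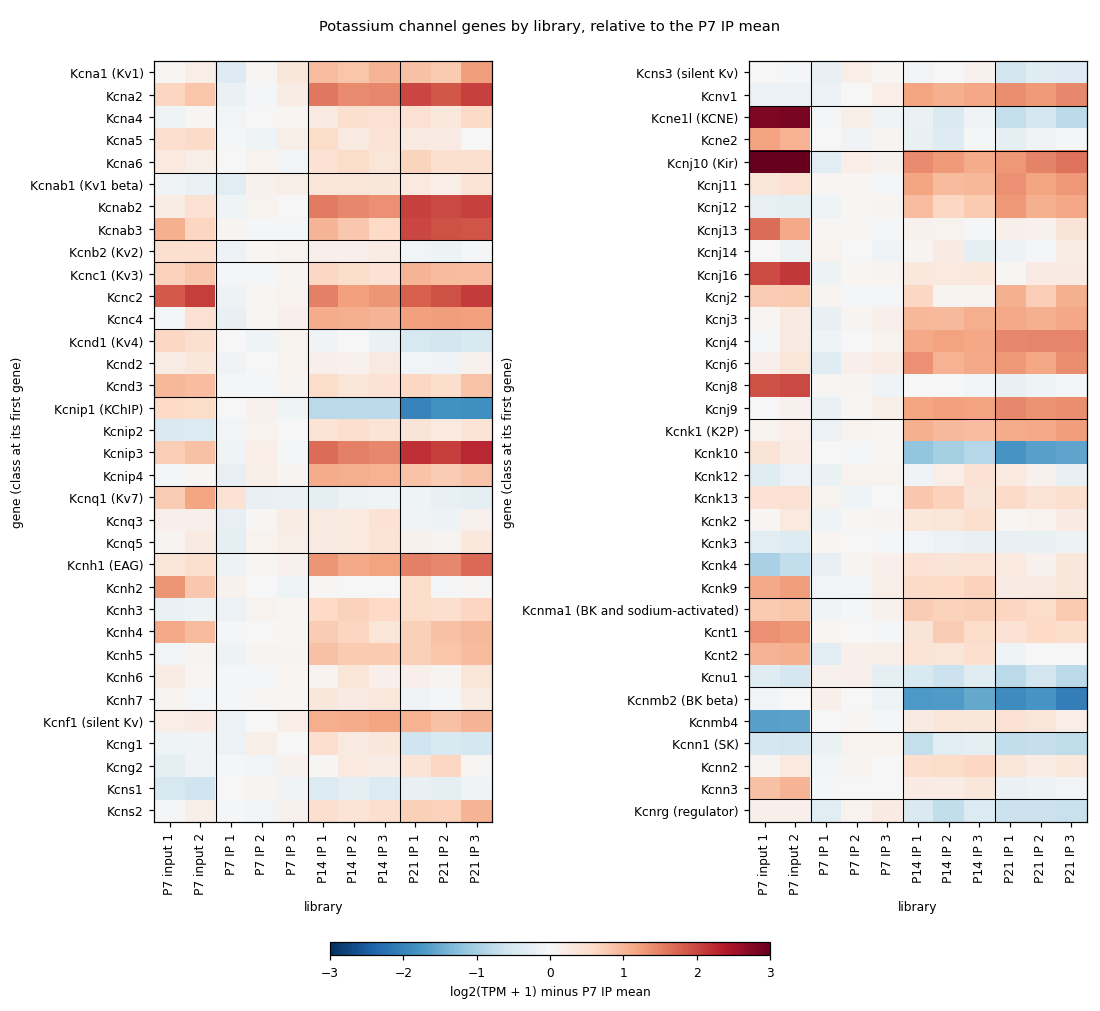
Each row is 1 of 68 of the described genes, grouped by channel class, and each column 1 of the 11 libraries. Colour gives log2(TPM + 1) minus the mean of the 3 P7 IP libraries (red higher, blue lower). Most rows turn red from P7 IP to P14 IP, where 47 of the 72 genes rose, while Kcnip1, Kcnk10 and Kcnmb2 turn blue.

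Kcnip3 had the largest rise from P7 to P21 and Kcnip1 the largest fall among genes above 5 TPM, Kcna2 rose most among the pore-forming Kv1 subunits, and Kcnmb4 was the most abundant channel gene. Their promoter windows are shown because they stand for these different courses, taken from RefSeq on assembly GRCm38.p6 (the submitters' processing notes name mm39), from 250 bases before to 50 after the most upstream start in that table. Capitals mark an E-box (CANNTG, the general motif of basic helix-loop-helix factors such as the NEX protein) or a GC box (GGGCGG), on either strand, with no base shared between motifs.
Kcnip3, chr2:127522045-127522344, minus strand: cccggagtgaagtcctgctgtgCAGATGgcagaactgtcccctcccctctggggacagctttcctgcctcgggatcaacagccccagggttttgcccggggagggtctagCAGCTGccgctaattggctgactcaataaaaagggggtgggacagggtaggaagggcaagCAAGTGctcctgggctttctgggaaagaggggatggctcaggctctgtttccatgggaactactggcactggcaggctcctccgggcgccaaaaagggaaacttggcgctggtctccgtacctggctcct
Kcnip1, chr11:33993144-33993443, minus strand: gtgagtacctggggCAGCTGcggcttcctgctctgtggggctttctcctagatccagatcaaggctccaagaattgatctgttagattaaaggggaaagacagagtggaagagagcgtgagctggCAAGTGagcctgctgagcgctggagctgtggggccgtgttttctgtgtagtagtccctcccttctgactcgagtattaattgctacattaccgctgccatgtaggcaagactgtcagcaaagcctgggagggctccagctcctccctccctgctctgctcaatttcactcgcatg
Kcna2, chr3:107101317-107101616, plus strand: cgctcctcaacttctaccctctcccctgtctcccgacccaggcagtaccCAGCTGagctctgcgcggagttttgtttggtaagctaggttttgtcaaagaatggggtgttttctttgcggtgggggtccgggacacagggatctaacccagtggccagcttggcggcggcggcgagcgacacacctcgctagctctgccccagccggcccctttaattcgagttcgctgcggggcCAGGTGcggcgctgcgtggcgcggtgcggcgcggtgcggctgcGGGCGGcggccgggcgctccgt
Kcnmb4, chr10:116473474-116473773, minus strand: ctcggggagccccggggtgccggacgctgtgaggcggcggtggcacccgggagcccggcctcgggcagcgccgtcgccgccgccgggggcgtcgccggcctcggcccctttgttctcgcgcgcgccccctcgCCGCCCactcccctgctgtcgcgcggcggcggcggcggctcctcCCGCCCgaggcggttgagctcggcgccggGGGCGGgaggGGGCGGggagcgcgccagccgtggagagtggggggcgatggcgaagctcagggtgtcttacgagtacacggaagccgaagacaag
The Kcnip3 window held 3 E-boxes and no GC box, the Kcnip1 window 2 E-boxes and no GC box, the Kcna2 window 2 E-boxes and 1 GC box, and the Kcnmb4 window 4 GC boxes and no E-box. The windows of the rising Kcnip3 and the falling Kcnip1 thus held the same kind of motif. Windows were found for 50 of the 72 genes, 74 windows in all. An E-box was in 54 of them, 73.0%, against 72.3% of all 32851 windows in the table, and a GC box in 36, 48.6%, against 35.7%. Median GC content was 58.2% for the channel genes and 52.7% for all windows. A match describes letters only and shows no binding.

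Kv1 channels sit mainly in axons, open at low voltages and limit firing, and their cytoplasmic Kv beta subunits govern inactivation and transport. All 5 described Kv1 genes and all 3 Kv beta genes rose from P7 to P14 (26.7% of all genes). Kcna2, a main axonal pore subunit, measured 8.61 and 10.0 TPM in the P7 input, 4.41, 5.05 and 6.23 TPM in the P7 IP, 17.6, 15.5 and 15.9 TPM at P14 and 23.7, 21.5 and 24.5 TPM at P21. The 3 IP ages did not overlap, and P7 IP lay below the input. It rose from P7 to P21 by 1.97 ± 0.11, adjusted p = 1.1e-07, in both steps. Kcna1, its usual axonal partner, rose from a mean of 2.40 TPM at P7 to 5.33 TPM at P14 and was 5.59 TPM at P21 (0.97 ± 0.18, adjusted p = 0.000708 from P7 to P21). Kcna6 was the most abundant of the class at 32.2, 44.2 and 47.1 TPM and rose by 0.54 ± 0.076. Kcna4, the fast-inactivating subunit, rose by 0.45 ± 0.091 from 5.81 to 8.31 TPM. Kcna5 stayed below 3 TPM, and its rise from P7 to P14 (0.41 ± 0.12, adjusted p = 0.015) lost its call without P7 IP replicate 2 or P14 IP replicate 1 (adjusted p from 0.0562 to 0.0594).

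The 3 Kv beta genes changed by unequal amounts. Kcnab2 measured 40.2, 48.0 and 44.7 TPM in the 3 P7 IP libraries, 133, 122 and 117 TPM at P14 and 185, 178 and 186 TPM at P21, beside 51.9 and 60.9 TPM in the input. Every later library was above every earlier one, and it rose by 2.02 ± 0.079, adjusted p = 1.48e-08 over the 2 weeks. Kcnab3 measured 5.76, 5.19 and 5.21 TPM in the 3 P7 IP libraries, 12.0, 10.2 and 8.67 TPM at P14 and 24.7, 22.9 and 22.7 TPM at P21, beside 12.3 and 8.91 TPM in the input. It was the only described gene whose second step (1.12 ± 0.12) had a larger fitted rise than a called first step (0.81 ± 0.12), although the difference between the steps was not called (adjusted p = 0.346). Kcnab1 went from 24.1 to 30.8 and 29.7 TPM, and its call from P7 to P21 (0.30 ± 0.11, adjusted p = 0.0395) was lost without either P7 input replicate, P7 IP replicate 1, any 1 P14 IP replicate or P21 IP replicate 1 or 3 (adjusted p from 0.0511 to 0.125) and that from P7 to P14 without P14 IP replicate 1 or 2 (adjusted p from 0.056 to 0.0567). As shares of the summed Kv beta TPM, Kcnab2 made up 60.2% at P7, 75.1% at P14 and 77.5% at P21, and Kcnab1 32.5%, 18.7% and 12.6%. The class as a whole went from 65.0 to 79.4 TPM at P7 to 228 to 240.3 TPM at P21.

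**Figure D2:**
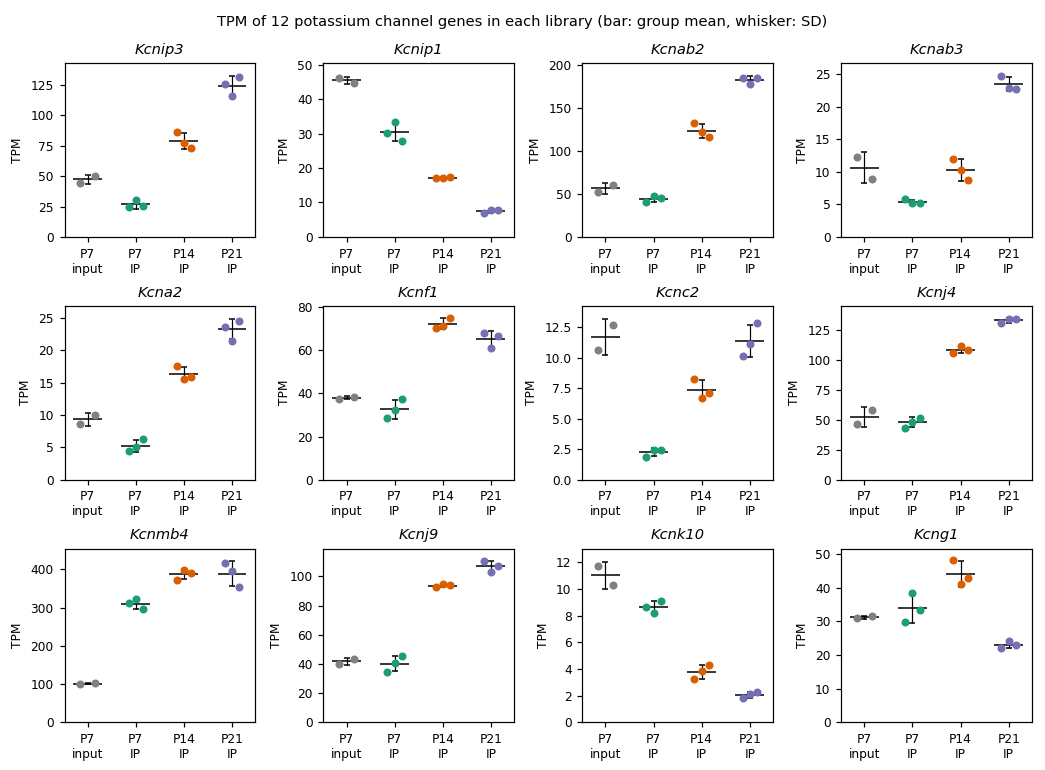
TPM of 12 genes in each library by group, where points are libraries, the bar is the group mean and the whisker the SD. Kcnip3, Kcnab2, Kcnab3, Kcna2, Kcnc2 and Kcnj4, each called in both steps, climb over all 3 IP ages, Kcnip1 and Kcnk10 descend, and Kcng1 is highest at P14.

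Kv2 and Kv3 channels are the main high-voltage delayed rectifiers. Kcnb2, a Kv2 gene, stayed between 1.31 and 1.80 TPM on average in the IP, with no call between ages.

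Kcnc1, Kcnc2 and Kcnc4 are Kv3 genes, whose fast deactivation allows brief action potentials, and each rose from P7 to P14 and was higher at P21 than at P7. Kcnc2 measured 1.89, 2.39 and 2.46 TPM in the 3 P7 IP libraries, 8.23, 6.66 and 7.13 TPM at P14 and 10.2, 11.2 and 12.8 TPM at P21, beside 10.7 and 12.7 TPM in the input. The IP ages were separate, and the input at P7 was as high as the IP at P21. It rose by 1.93 ± 0.12, adjusted p = 1.93e-07. Kcnc1 measured 10.6, 10.6 and 11.8 TPM in the 3 P7 IP libraries, 17.4, 16.3 and 15.3 TPM at P14 and 23.4, 22.2 and 21.8 TPM at P21, beside 18.3 and 19.9 TPM in the input. It too rose in both steps, by 0.53 ± 0.069 and then 0.44 ± 0.069, and by 0.97 ± 0.069, adjusted p = 6.87e-07 in all. Kcnc4 was at 19.8, 42.6 and 47.7 TPM (1.24 ± 0.12, adjusted p = 8.94e-06). Kcnc1 and Kcnc2 are best known from fast-spiking interneurons, and Pvalb, a marker of those cells, moved with them: it was 0.136, 0.139 and 0.0781 TPM at P7, 3.69, 3.79 and 2.90 TPM at P14 and 12.2, 14.7 and 14.6 TPM at P21 in the IP. Of the 7 other inhibitory markers, 4 were higher and 1 lower at P21 than at P7 (27.3% and 32.6% of all genes). None of the 7 was at 0, and their summed level was 49.3 to 58.1 TPM at P7 and 59.2 to 72.9 TPM at P21. The part of interneuron RNA in the Kv3 changes was not tested.

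Kv4 channels carry the dendritic A-type current together with the KChIP calcium-binding proteins, and here the largest changes were in the KChIPs. Kcnd2 was at 22.7, 25.9 and 22.4 TPM with no call between ages. Kcnd3 rose from 5.87 to 9.94 TPM (0.66 ± 0.093, adjusted p = 0.000108), and Kcnd1 fell from 3.97 to 2.52 TPM (-0.49 ± 0.090, adjusted p = 0.000737). Of the 4 KChIP genes, 3 rose and 1 fell between P7 and P21 (27.3% and 32.6% of all genes). Kcnip3, which also acts as the transcriptional repressor DREAM, measured 44.7 and 50 TPM in the P7 input, 24.2, 30.5 and 25.4 TPM in the P7 IP, 86.6, 77.3 and 73.4 TPM at P14 and 126, 116 and 131 TPM at P21. Each IP age lay fully above the one before. Its change from P7 to P21 was 2.18 ± 0.094, adjusted p = 2.58e-08. Kcnip1 measured 46.3 and 44.7 TPM in the P7 input, 30.3, 33.4 and 27.9 TPM in the P7 IP, 17.0, 17.1 and 17.3 TPM at P14 and 6.87, 7.88 and 7.71 TPM at P21. Each group lay below the one before, and the change from P7 to P21 was -1.89 ± 0.072, adjusted p = 1.31e-08.

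Kcnip2, the most abundant KChIP, measured 108, 123 and 113 TPM at P7, 154, 163 and 153 TPM at P14 and 149, 141 and 152 TPM at P21 in the IP, and 84.9 and 85.4 TPM in the P7 input. It was above the P7 input in every IP library, with no input at the later ages. It rose by 0.45 ± 0.056, adjusted p = 7.9e-05 from P7 to P14, with no call in the second step. Kcnip4, at 25.8, 55.3 and 46.2 TPM, rose by 1.08 ± 0.095, adjusted p = 6.71e-06 from P7 to P14. Of the summed KChIP TPM, Kcnip1 made up 14.4% to 16.5% at P7 and 2.09% to 2.56% at P21, and Kcnip3 13.1% to 14.1% and 37.5% to 38.9%. Neither range overlapped between the 2 ages.

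**Figure D3:**
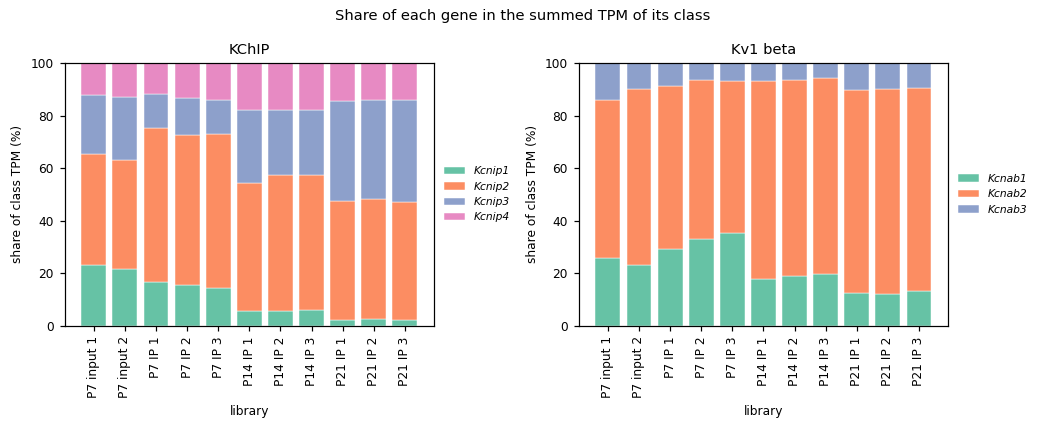
Stacked bars give each gene's share (%) of the summed TPM of its class in each library, for the KChIP and Kv beta classes. The share of Kcnip1 among KChIPs went from 15.5% at P7 to 2.31% at P21 and that of Kcnip3 from 13.5% to 38.2%, while Kcnab2 went from 60.2% to 77.5% of the Kv beta genes.

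Kv7 channels carry the M-current, a slow brake on firing. Kcnq3 measured 19.5, 23.9 and 27.3 TPM at P7, 28.5, 28.9 and 31.8 TPM at P14 and 21.5, 20.8 and 25.6 TPM at P21 in the IP, and 25.9 and 26.2 TPM in the P7 input. It was highest at P14. The rise to P14 (0.33 ± 0.11, adjusted p = 0.0317) lost its call without P7 IP replicate 1 or 2 or any 1 P14 IP replicate (adjusted p from 0.0501 to 0.108), and the fall to P21 (-0.38 ± 0.11, adjusted p = 0.029) without P14 IP replicate 2 or 3 or P21 IP replicate 1 or 2 (adjusted p from 0.0611 to 0.101). Kcnq5 was at 15.8, 19.8 and 17.8 TPM, and its P7 to P14 call (0.32 ± 0.12, adjusted p = 0.0406) was lost without P7 IP replicate 1, any 1 P14 IP replicate or P21 IP replicate 1 (adjusted p from 0.0529 to 0.131). Kcnq1, described only because of the input, was at or below 0.831 TPM in the IP.

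EAG-family channels comprise slow EAG, ERG and ELK subtypes. Kcnh3, an ELK channel and the most abundant of the family, measured 68.5, 83.7 and 81.1 TPM at P7, 119, 125 and 117 TPM at P14 and 114, 111 and 121 TPM at P21 in the IP, and 67.3 and 69.4 TPM in the P7 input. P14 and P21 overlapped each other and lay above P7. It rose by 0.63 ± 0.072, adjusted p = 4.1e-05 from P7 to P14. Kcnh1, the EAG channel, measured 5.71, 6.69 and 7.24 TPM at P7, 17.7, 15.5 and 16.5 TPM at P14 and 20.4, 19.3 and 23.2 TPM at P21 in the IP, and 8.68 and 9.55 TPM in the P7 input. All ages were separate. It rose by 1.54 ± 0.096, adjusted p = 2.48e-07, while the second step alone (0.32 ± 0.096) lost its call without P14 IP replicate 2 or 3 or P21 IP replicate 1 or 3 (adjusted p from 0.0607 to 0.102). Kcnh4 rose as well, from 1.79 to 4.04 TPM (0.85 ± 0.12, adjusted p = 0.000103). Kcnh5 was at 0.839, 2.23 and 2.27 TPM, and passed the minimum only through the P14 and P21 libraries, so no test is given. The 3 ERG genes behaved otherwise. Kcnh2 measured 6.2, 5.60 and 5.00 TPM at P7, 5.73, 5.48 and 5.52 TPM at P14 and 8.64, 5.34 and 5.78 TPM at P21 in the IP, and 15.3 and 10.6 TPM in the P7 input. Its IP ages overlapped and no age comparison was called. Kcnh7 measured 8.54, 9.25 and 9.26 TPM at P7, 11.6, 10.8 and 11.5 TPM at P14 and 8.36, 8.70 and 10.6 TPM at P21 in the IP, and 9.60 and 8.68 TPM in the P7 input. It was highest at P14, with a rise (0.29 ± 0.089, adjusted p = 0.0182) whose call was lost without P7 IP replicate 1 or P14 IP replicate 1 or 3 (adjusted p from 0.051 to 0.0608). Its fall (-0.27 ± 0.089, adjusted p = 0.0446) lost the call without either P7 input replicate, P7 IP replicate 2 or 3, any 1 P14 IP replicate or P21 IP replicate 1 or 2 (adjusted p from 0.0544 to 0.151). Kcnh6 was at 0.947, 1.27 and 1.25 TPM with no call.

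Silent Kv subunits form no channels alone and modify Kv2 channels. Kcnf1 measured 37.4 and 38.4 TPM in the P7 input, 28.6, 32.2 and 37.2 TPM in the P7 IP, 70.6, 71.3 and 75.2 TPM at P14 and 68.0, 61.0 and 66.6 TPM at P21. It rose by 1.13 ± 0.084, adjusted p = 2.18e-06 from P7 to P14, and P21 lay slightly below P14 without a call (-0.15 ± 0.084, adjusted p = 0.218). Kcnv1, at 20.5, 46.1 and 54.3 TPM, rose by 1.37 ± 0.088, adjusted p = 3.22e-07 over the 2 weeks. Kcng1 measured 31 and 31.5 TPM in the P7 input, 29.8, 38.5 and 33.5 TPM in the P7 IP, 48.3, 41.1 and 42.8 TPM at P14 and 22, 24.2 and 23.0 TPM at P21. It rose by 0.37 ± 0.090, adjusted p = 0.00577 to P14 and then fell by 0.90 ± 0.090, adjusted p = 0.000102, below its P7 level in every library. Kcns2 measured 5.72, 5.42 and 6.45 TPM at P7, 8.71, 8.08 and 8.68 TPM at P14 and 10.3, 10.0 and 12.8 TPM at P21 in the IP, and 5.66 and 6.73 TPM in the P7 input. It rose by 0.81 ± 0.10, adjusted p = 5.6e-05, with a second step (0.34 ± 0.10) whose call was lost without any 1 P14 IP replicate or P21 IP replicate 3 (adjusted p from 0.0611 to 0.106). Kcns1 measured 21.5, 22.6 and 19.8 TPM at P7, 15.7, 17.4 and 15.6 TPM at P14 and 18, 17.6 and 19.8 TPM at P21 in the IP, and 14.9 and 13.6 TPM in the P7 input. It was lower at P14 than at P7 (-0.37 ± 0.074, adjusted p = 0.00195), and its smaller difference at P21 (-0.20 ± 0.074, adjusted p = 0.0418), where the groups overlapped, lost its call without P7 IP replicate 1 or 2, P14 IP replicate 1 or 3 or P21 IP replicate 1 or 2 (adjusted p from 0.0507 to 0.143). Under median-of-ratios scaling and quantile normalisation that difference for Kcns1 had an adjusted p of 0.125 in each. Kcns3 fell from 2.80 to 1.77 TPM (-0.46 ± 0.12, adjusted p = 0.0171), a call lost without P14 IP replicate 3 or P21 IP replicate 1 (adjusted p from 0.0636 to 0.0664). Kcng2 had no call.

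Among inward rectifiers, the Kir2 genes Kcnj4 and Kcnj12 and the Kir3 genes Kcnj3, Kcnj6 and Kcnj9 rose from P7 to P14. Of 12 Kir genes, 8 rose from P7 to P14 (26.7% of all genes) and 8 were higher at P21 than at P7 (27.3% of all genes), and the others were not called. The Kir3 genes encode the channels opened by G protein beta-gamma subunits downstream of inhibitory receptors. Kcnj9 measured 40.0 and 43.6 TPM in the P7 input, 34.7, 40.9 and 45.3 TPM in the P7 IP, 92.4, 94.9 and 93.8 TPM at P14 and 110.5, 103 and 107 TPM at P21. It rose by 1.39 ± 0.082, adjusted p = 1.78e-07. Kcnj3 went from 21.0 to 43.3 and 46.5 TPM (1.12 ± 0.095, adjusted p = 2.47e-06) and Kcnj6 from 3.20 to 8.41 and 9.08 TPM (1.28 ± 0.15, adjusted p = 3.51e-05), while Kcnj5 was under the minimum. Kcnj14, also of Kir2, was at 1.26, 1.31 and 1.29 TPM with no call. Kcnj4, a strong Kir2 rectifier and the most abundant Kir gene, measured 43.3, 48.4 and 51.6 TPM in the 3 P7 IP libraries, 106, 111 and 108 TPM at P14 and 131, 134 and 133 TPM at P21, beside 46.1 and 58.0 TPM in the input. It rose by 1.46 ± 0.083, adjusted p = 1.39e-07. Its second step alone (0.29 ± 0.083) lost its call without P14 IP replicate 1 or 3 or any 1 P21 IP replicate (adjusted p from 0.0535 to 0.0689). Kcnj12, also of Kir2, measured 4.29, 5.05 and 5.17 TPM in the 3 P7 IP libraries, 10.1, 7.89 and 9.07 TPM at P14 and 13.4, 11.3 and 12.0 TPM at P21, beside 3.89 and 3.86 TPM in the input. It rose by 1.18 ± 0.10, adjusted p = 2.7e-06, with a second step (0.40 ± 0.10) whose call was lost without P14 IP replicate 2 or P21 IP replicate 1 (adjusted p from 0.0573 to 0.058).

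Kcnj2 was the only described gene that rose in the second step and was not called in the first, at 1.07, 1.54 and 3.03 TPM (0.68 ± 0.15, adjusted p = 0.00814 from P14 to P21). The difference between its 2 steps was not called (adjusted p = 0.303), except without P14 IP replicate 1 (adjusted p = 0.0458). Kcnj11, the pore of the ATP-sensitive channel, rose from 10.6 to 27.2 TPM (1.28 ± 0.077, adjusted p = 2.09e-07), with a second step (0.24 ± 0.077) whose call was lost without either P7 input replicate, P7 IP replicate 1 or 2, P14 IP replicate 2 or 3 or P21 IP replicate 1 or 3 (adjusted p from 0.0504 to 0.147). Kcnj10, the main Kir channel of astrocytes, measured 27.8 and 31.7 TPM in the P7 input, 1.92, 3.19 and 2.96 TPM in the P7 IP, 8.69, 7.86 and 6.92 TPM at P14 and 7.94, 9.15 and 10.2 TPM at P21. The IP values rose from P7 to P21 by 1.46 ± 0.14, adjusted p = 7.27e-06 and stayed below the P7 input in every library. Kcnj16, the usual partner of Kcnj10, measured 7.21 and 8.18 TPM in the P7 input, 0.887, 1.20 and 1.24 TPM in the P7 IP, 1.63, 1.56 and 1.63 TPM at P14 and 1.15, 1.48 and 1.5 TPM at P21. Its P7 to P14 call (0.31 ± 0.10, adjusted p = 0.0301) was lost without P7 IP replicate 1 or any 1 P14 IP replicate (adjusted p from 0.0591 to 0.107). Beside Kcnj10, 7 of 8 astrocyte markers also rose from P7 to P14 (26.7% of all genes rose). Their summed level was 41.9 to 63.2 TPM at P7 and 113 to 132 TPM at P14, with no marker at 0. Aldh1l1 went from 4.78 to 19.5 TPM. Gfap, the marker that was not called, went from 8.40 to 11.6 TPM (0.44 ± 0.18, limma adjusted p = 0.0586). The part of astrocyte RNA in the Kcnj10 and Kcnj16 values was not tested.

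K2P genes encode the background leak. Kcnk1 measured 33.8 and 36.3 TPM in the P7 input, 27.7, 33.6 and 32.9 TPM in the P7 IP, 66.7, 62.6 and 60.2 TPM at P14 and 68.7, 70.2 and 75.8 TPM at P21. It rose by 1.17 ± 0.077, adjusted p = 3.79e-07, mostly before P14 (0.99 ± 0.077). Of the mechanosensitive TREK and TRAAK genes, Kcnk4 and Kcnk2 were highest at P14 within the IP, while Kcnk10 fell. Kcnk4 measured 24.7 and 29.4 TPM in the P7 input, 41.8, 53.1 and 55.5 TPM in the P7 IP, 67.8, 65.8 and 66.0 TPM at P14 and 61.4, 54.6 and 63.6 TPM at P21. It was above the P7 input in every IP library and rose by 0.41 ± 0.11, adjusted p = 0.00793 to P14. All its P21 libraries lay below all P14 libraries, without a call. Kcnk2 measured 42.5 and 50.6 TPM in the P7 input, 38, 42.3 and 43.9 TPM in the P7 IP, 51.8, 53.5 and 57.6 TPM at P14 and 43.0, 44.3 and 49.2 TPM at P21. It rose by 0.38 ± 0.083, adjusted p = 0.00292 to P14, and the lower values at P21 (-0.25 ± 0.083, adjusted p = 0.0446) lost their call without P7 IP replicate 2, any 1 P14 IP replicate or P21 IP replicate 1 or 2 (adjusted p from 0.0543 to 0.145). Kcnk10 measured 11.7 and 10.3 TPM in the P7 input, 8.66, 8.19 and 9.12 TPM in the P7 IP, 3.23, 3.81 and 4.32 TPM at P14 and 1.82, 2.11 and 2.24 TPM at P21. It fell at both steps without overlap and by 1.66 ± 0.10, adjusted p = 2.34e-07 in all.

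Kcnk3 and Kcnk9 encode the acid-sensitive TASK channels. Kcnk3 measured 14.2, 13.4 and 12.9 TPM at P7, 12.7, 11.8 and 11.4 TPM at P14 and 11.5, 11.4 and 12.0 TPM at P21 in the IP, and 10.5 and 9.85 TPM in the P7 input. All P21 libraries lay below all P7 libraries. Its difference from P7 to P21 (-0.20 ± 0.065, adjusted p = 0.0219) lost its call without P7 IP replicate 1 or P21 IP replicate 1 or 2 (adjusted p from 0.0609 to 0.0752), and the adjusted p was 0.113 under median-of-ratios scaling and 0.0769 under quantile normalisation. Kcnk9 measured 6.2, 6.26 and 7.60 TPM at P7, 10.3, 10.5 and 11.4 TPM at P14 and 8.01, 8.24 and 8.62 TPM at P21 in the IP, and 16.0 and 17.2 TPM in the P7 input. It was highest at P14 within the IP, after a rise of 0.61 ± 0.082, adjusted p = 0.000122. The following fall (-0.34 ± 0.082, adjusted p = 0.0122) lost its call without P14 IP replicate 3 (adjusted p = 0.051). The THIK genes Kcnk12 and Kcnk13 were at 12.6 and 1.76 TPM at P21, with no age call for Kcnk12 and a rise of 0.49 ± 0.12, adjusted p = 0.00541 for Kcnk13. Kcnk13 is known from microglia, whose 7 markers all rose from P7 to P21 (27.3% of all genes rose), with none at 0. Their part in the Kcnk13 value was not tested.

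Kcnmb4, the neuronal beta subunit that slows BK channels, was the most abundant channel gene in every group. It measured 99.9 and 102 TPM in the P7 input, 311, 322 and 296 TPM in the P7 IP, 373, 399.7 and 391 TPM at P14 and 417, 396 and 353 TPM at P21. The IP exceeded the input severalfold at P7, and P14 and P21 overlapped each other above P7. It rose by 0.32 ± 0.063, adjusted p = 0.00148 from P7 to P14. In RefSeq the antisense transcripts Kcnmb4os1 and Kcnmb4os2 overlap this gene, and the sources used here do not say whether counting used strand, so reads may have been shared between them. Kcnma1, the BK pore, rose from 14.2 to 24.1 TPM (0.73 ± 0.077, adjusted p = 2.37e-05) and was 23.1 TPM at P21. Kcnmb2, the beta subunit that inactivates BK channels, was at 4.52, 3.94 and 3.58 TPM at P7, 0.511, 0.531 and 0.726 TPM at P14 and 0.352, 0.472 and 0.191 TPM at P21 in the IP. It reached 1 TPM only in P7 libraries, input and IP, so no test is given.

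Kcnt1 and Kcnt2 encode the sodium-activated channels. Kcnt1 measured 16.2, 15.8 and 14.9 TPM at P7, 20.8, 27.4 and 23.5 TPM at P14 and 21.4, 24.0 and 22.8 TPM at P21 in the IP, and 41.9 and 39.7 TPM in the P7 input. It rose by 0.57 ± 0.089, adjusted p = 0.000348 from P7 to P14 and was below the P7 input in every IP library. No input was taken at the later ages. Kcnt2 measured 2.11, 3.38 and 3.38 TPM at P7, 4.21, 4.03 and 4.53 TPM at P14 and 2.55, 2.94 and 2.93 TPM at P21 in the IP, and 6.92 and 7.24 TPM in the P7 input. It was highest at P14 within the IP, with a rise (0.43 ± 0.13, adjusted p = 0.0184) whose call was lost without P14 IP replicate 3 (adjusted p = 0.0579) and a fall (-0.47 ± 0.13, adjusted p = 0.0216) whose call was lost without P14 IP replicate 3 or P21 IP replicate 1 (adjusted p from 0.073 to 0.0738). Kcnu1, known as the sperm channel of the BK family, measured 14.2, 14.4 and 10.5 TPM at P7, 9.2, 7.89 and 9.91 TPM at P14 and 6.89, 8.43 and 6.95 TPM at P21 in the IP, and 9.79 and 8.76 TPM in the P7 input. Its libraries at P14 and P21 lay below those at P7, and it fell by 0.73 ± 0.13, adjusted p = 0.000566 from P7 to P21.

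SK channels produce the afterhyperpolarisation that follows calcium entry, and their summed level was 65.8 to 79.0 TPM at P7 and 54.4 to 55.7 TPM at P21. Kcnn1 measured 39.2 and 38.2 TPM in the P7 input, 49.0, 60.3 and 60.0 TPM in the P7 IP, 33.7, 44.1 and 45.6 TPM at P14 and 33.3, 34.6 and 32.5 TPM at P21. It fell by 0.73 ± 0.11, adjusted p = 0.00021 from P7 to P21. Its P7 IP libraries lay above the P7 input and its P21 IP libraries below that same P7 input, with no input at P21. Kcnn2 measured 16.8 and 19.8 TPM in the P7 input, 15.1, 16.9 and 15.9 TPM in the P7 IP, 23.1, 23.7 and 25.1 TPM at P14 and 20.9, 18.9 and 20.2 TPM at P21. It rose by 0.56 ± 0.073, adjusted p = 0.000106 to P14, and the lower values at P21 (-0.25 ± 0.073, adjusted p = 0.0275) lost their call without P14 IP replicate 2 or 3 or P21 IP replicate 2 or 3 (adjusted p from 0.0511 to 0.099). Kcnn1 and Kcnn2 thus moved in opposite directions from P7 to P14. Kcnn3 was below 3 TPM in the IP, with 1.71, 2.26 and 1.45 TPM. It was lower at P21 than at P14 (-0.41 ± 0.084, adjusted p = 0.00497), and its P7 to P14 call (0.26 ± 0.084, adjusted p = 0.0237) was lost without P7 IP replicate 1 or P14 IP replicate 1 or 3 (adjusted p from 0.0501 to 0.0795). Kcnrg, a soluble regulator of Kv assembly whose span overlaps Trim13 and Dleu2, was at 1.18 TPM at P7 and 0.364 TPM at P21 in the IP. It reached 1 TPM only in P7 libraries, input and IP, so no test is given.

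The 2 weekly steps were compared directly, as the change from P14 to P21 minus the change from P7 to P14. For 34 of the 72 genes the second step was lower and for 3 higher (background 16.8% and 7.46%), and the median difference was -0.48 against -0.10 for all genes. Of the 47 genes that rose in the first step, 11 rose again, 28 had no call in the second step and 8 fell. For 34 of the 47 the difference of steps was called. The 47 were picked by a high first step, which the difference subtracts, so negative differences were favoured among them. The matching shares among all genes that rose in the first step were not counted, so these counts are a description only. The 11 that rose in both steps were Kcna2, Kcnab2, Kcnab3, Kcnc1, Kcnc2, Kcnh1, Kcnip3, Kcnj11, Kcnj12, Kcnj4 and Kcns2. The second-step calls of Kcnh1, Kcnj11, Kcnj12, Kcnj4 and Kcns2 were lost without single libraries as given above. The 8 that rose and then fell were Kcng1, Kcnh7, Kcnk2, Kcnk9, Kcnn2, Kcnn3, Kcnq3 and Kcnt2. The falls of Kcnh7, Kcnk2, Kcnn2 and Kcnq3 were not called under median-of-ratios scaling (adjusted p = 0.143, 0.207, 0.196 and 0.071 in that order). Both steps use the P14 libraries, so a high or low P14 value moves them in opposite directions. The most negative differences were in Kcnip4 (-1.34 ± 0.17, adjusted p = 0.000586), Kcnf1 (-1.28 ± 0.14, adjusted p = 0.000402) and Kcng1 (-1.28 ± 0.16, adjusted p = 0.000574). The second step was higher for Kcns1 (0.54 ± 0.13, adjusted p = 0.0127), after a fall in the first step. Kcnmb2 was also among the 3, but at a mean of 0.589 TPM at P14 it had little room to fall further, so no test is given. The Kcns1 call was lost without P14 IP replicate 1 or 3 (adjusted p from 0.0555 to 0.056).

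**Figure D4:**
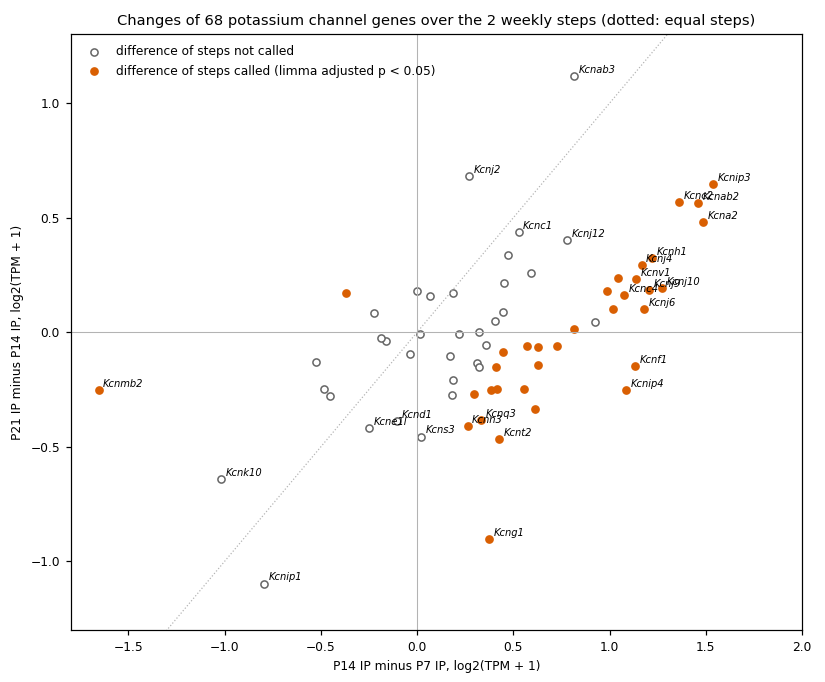
Each point is 1 of 68 of the described genes, with the change from P7 to P14 on the x axis and from P14 to P21 on the y axis, both as differences of log2(TPM + 1), and filled where the difference of the steps was called. Most points lie to the right of 0 and below the dotted line of equal steps, and 34 of the 72 genes had a lower second step. Kcnip1 and Kcnk10 lie at the lower left, Kcng1 at the lower right and Kcnab3 at the top.

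At P7 the IP was compared with whole tissue to ask which channel genes were richer in ribosome-bound RNA of the tagged neurons. Of the 72 genes, 8 were higher and 34 lower in the IP (background 18.6% and 51.1%, 69.8% in either direction), with a median of -0.21 against -0.33 for all genes. Of the 34, Kcne2, Kcnj13, Kcnj8 and Kcnq1 passed the minimum only through the input. This split depended on the scaling between libraries: median-of-ratios scaling and quantile normalisation moved the median of all genes by 0.33 and 0.36, and then gave 26 higher and 22 lower, and 25 higher and 20 lower. Of the 42 calls, 24 held their direction and call under every alternative that gave a value, and the genes in the following sentences are among these 24 unless a value without a library is given. Ribosome-bound and total RNA also differ in kind, so the comparison covers both cell type and ribosome loading.

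Kcnmb4 stood apart among the higher genes (1.61 ± 0.070, adjusted p = 3.82e-08), with IP values of 311, 322 and 296 TPM against 99.9 and 102 TPM in the input. Kcnk4 followed (0.86 ± 0.12, adjusted p = 7.7e-05). Kcns1 (0.54 ± 0.083, adjusted p = 0.000168), Kcnn1 (0.53 ± 0.12, adjusted p = 0.00323), Kcnip2 (0.42 ± 0.063, adjusted p = 0.000134) and Kcnk3 (0.37 ± 0.072, adjusted p = 0.00087) were also higher. Kcnu1 (0.44 ± 0.14, adjusted p = 0.0184) lost its call without P7 input replicate 2 or P7 IP replicate 1 or 2 (adjusted p from 0.0572 to 0.121). It also lost it when ribosomal protein, mitochondrial and haemoglobin genes were left out of the scaling (adjusted p = 0.0555).

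The genes lowest in the IP were Kcnj10 (-3.08 ± 0.16, adjusted p = 1.01e-07) and Kcne1l (-2.83 ± 0.13, adjusted p = 5.35e-08). Kcne1l, a small KCNE subunit that modulates Kv7 channels, measured 17.4 and 18.1 TPM in the P7 input, 1.57, 1.97 and 1.41 TPM in the P7 IP, 1.28, 0.964 and 1.43 TPM at P14 and 0.618, 0.832 and 0.543 TPM at P21. All IP libraries lay far below both input libraries. Kcnj16 (-2.04 ± 0.12, adjusted p = 1.72e-07) and Kcnc2 (-1.97 ± 0.13, adjusted p = 4.2e-07) came next. Kcnj8, Kcnj13 and Kcne2 passed the minimum only through the 2 input libraries, so they had to be lower in the IP and their values are given with no test. Kcnj8, the ATP-sensitive pore of mural cells, was at 4.23 and 4.48 TPM in the input and at 0.411, 0.458 and 0.30 TPM in the P7 IP. Kcnj13 and Kcne2, both known from choroid plexus epithelium, were at 1.82 and 2.08 TPM in the input and at 0.0477 and 0.411 TPM in the IP. Among neuronal genes Kcnt1 (-1.33 ± 0.099, adjusted p = 1.03e-06), Kcnk9 (-1.20 ± 0.092, adjusted p = 1.18e-06), Kcnh2 (-1.06 ± 0.19, adjusted p = 0.000429), Kcnt2 (-1.05 ± 0.14, adjusted p = 7.96e-05) and Kcnh4 (-1.05 ± 0.13, adjusted p = 4.16e-05) were lower. Kcnd3, Kcnn3, Kcnma1, Kcnip3 and Kcnc1 were lower too, with differences of -0.97 to -0.74. All 8 astrocyte and all 8 endothelial and mural markers were also lower in the IP, with sums of 41.9 to 63.2 and 20.3 to 29.4 TPM against 659.9 to 722 and 260.3 to 262 TPM in the input. All 8 inhibitory neuron markers were lower too, beside 51.1% of all genes. The part of these cell types in the input values of the genes named was not tested.

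**Figure D5:**
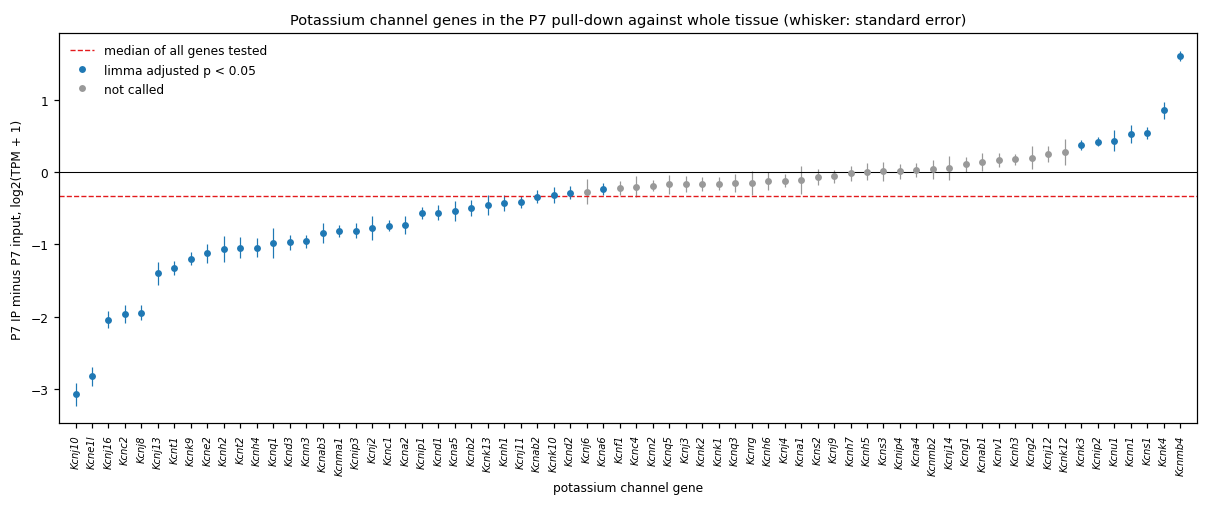
Points give P7 IP minus P7 input on the log2(TPM + 1) scale for 68 of the described genes, in order of size, with whiskers for the standard error and blue for genes called by limma. The dashed line is the median of all genes tested, -0.33. Kcnmb4 stands at the top with 1.61 and Kcnj10 and Kcne1l at the bottom with -3.08 and -2.83.

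Kcnip3 and Kcnc2, both with large rises after P7, were lower in the P7 IP under every alternative that gave a value, while for Kcna2, Kcnab2 and Kcnab3 the call depended on the scaling. Kcna2 was lower in the P7 IP than in the input (-0.73 ± 0.12, adjusted p = 0.000293), a call lost under quantile normalisation (adjusted p = 0.217), and so was Kcnab3 (-0.85 ± 0.14, adjusted p = 0.000292; adjusted p = 0.0988 there). Kcnab2 was lower by a smaller amount (-0.34 ± 0.088, adjusted p = 0.00547) that turned to 0.064 under median-of-ratios scaling and lost its call without P7 input replicate 2 (adjusted p = 0.0762). Kcnip1, which fell after P7, was also lower (-0.56 ± 0.080, adjusted p = 0.000103) and had an adjusted p of 0.0951 under median-of-ratios scaling.

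Proteins that join or anchor these channels were followed as a list of 21 partner genes, of which 19 were tested (Lrrc38 and Lrrc52, BK gamma subunits, were too low). From P7 to P14, 13 of the 19 rose and 1 fell, from P14 to P21 3 fell and the others were not called, and from P7 to P21 11 rose and 5 fell. The 19 include Abcc9, which passed the minimum only through the input and was below 1 TPM in every IP library. Among all genes tested, 26.7% rose and 22.8% fell from P7 to P14, 19.7% fell from P14 to P21, and 27.3% rose and 32.6% fell from P7 to P21, so the shares of partners that fell (15.8% and 26.3% in the last 2 comparisons) were not above it. The 3 were 5 without P7 IP replicate 1 and 1 without P14 IP replicate 1 or 2 or P21 IP replicate 2, and the 5 were 3 without P7 IP replicate 3 or P21 IP replicate 1. Akap5, the kinase anchor of Kv7 regulation, went from 4.83, 5.51 and 6.73 TPM at P7 to 18.7, 16.0 and 16.4 TPM at P14 and 17.6, 15.3 and 17.8 TPM at P21 (1.42 ± 0.11, adjusted p = 1.35e-06). Rgs7bp, which anchors the regulator of Kir3 signalling, went from 24.1 to 64.4 TPM (1.39 ± 0.12, adjusted p = 2.56e-06), and Gnb5, its G protein subunit, from 67.8 to 119 TPM (0.80 ± 0.069, adjusted p = 2.62e-06), beside the rise of all 3 described Kir3 genes. Rgs7 itself rose by 0.39 ± 0.077, adjusted p = 0.00126, and Snx27, which sorts Kir3 channels, was slightly lower (-0.19 ± 0.072, adjusted p = 0.038), which missed the threshold without P7 IP replicate 3, any 1 P14 IP replicate or P21 IP replicate 1 or 2 (adjusted p from 0.0507 to 0.144). Amigo1, the Kv2 auxiliary subunit, rose from 16.5 to 32.3 TPM (0.93 ± 0.068, adjusted p = 7.65e-07). The endoplasmic reticulum partners Vapa and Vapb had no call from P7 to P21. Vapa was higher at P14 than at P7 (0.19 ± 0.053, adjusted p = 0.0135), with means of 132, 150 and 134 TPM at P7, P14 and P21. Dpp6 and Dpp10, the dipeptidyl peptidase-like Kv4 subunits, rose by 0.43 ± 0.055, adjusted p = 5.88e-05 and 0.23 ± 0.074, adjusted p = 0.0188. The Dpp10 call was lost without P7 IP replicate 1 or P21 IP replicate 1 or 3 (adjusted p from 0.064 to 0.0698).

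Partners of axonal Kv1 channels moved in both directions. Lgi1, a secreted protein that binds Adam22 in Kv1 complexes, went from 36.8 to 74.5 TPM (1.00 ± 0.095, adjusted p = 5.79e-06), and Epb41l3 (protein 4.1B) rose by 0.49 ± 0.099, adjusted p = 0.00149. Adam22 was just above the threshold (0.22 ± 0.089, adjusted p = 0.0556) and was called under median-of-ratios scaling (adjusted p = 0.00718) and when P7 IP replicate 3 (adjusted p = 0.00916) or P21 IP replicate 2 (adjusted p = 0.0472) was left out. Cntnap2 and Cntn2, the cell adhesion pair that holds Kv1 channels beside nodes of Ranvier, fell while Kcna1, Kcna2 and Kcnab2 rose: Cntnap2 went from 24.9 to 15.3 TPM (-0.67 ± 0.052, adjusted p = 1.19e-06) and Cntn2 from 17.7 to 10.2 TPM (-0.74 ± 0.091, adjusted p = 4.07e-05). Abcc8, the sulfonylurea receptor of Kcnj11 channels, rose from 4.30 to 7.28 TPM (0.64 ± 0.093, adjusted p = 0.000136). Abcc9, its vascular relative, was 2.40 TPM in the input and 0.404 TPM in the P7 IP, and passed the minimum only through the input, so no test is given. Of the BK gamma genes, Lrrc55 fell (-0.62 ± 0.13, adjusted p = 0.0015) and Lrrc26 was at 1.07, 2.43 and 1.98 TPM. Lrrc26 rose from P7 to P14 by 0.73 ± 0.14, adjusted p = 0.00129.

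The remaining 22 genes did not reach the minimum. Closest to it on the lower side were Kcng4 and Kcna3, each with 1 library at 1 TPM or more (highest values 1.02 and 1.01 TPM). Just inside it were Kcne2, Kcnj13 and Kcnq1, each with only the 2 input libraries at 1 TPM or more. Kcnj5, Kcnk6, Kcne4, Kcnh8 and Kcne3 reached 0.682 to 0.941 TPM in their highest library. Kcnk5, Kcnk7, Kcnn4, Kcnmb1, Kcnk15, Kcng3, Kcna7 and Kcnj15 reached 0.132 to 0.431 TPM and Kcnk16, Kcnmb3, Kcna10, Kcnv2, Kcne1 and Kcnk18 0.0115 to 0.0889 TPM. Kcnj1, the renal Kir channel, was listed at 0 in every library. Of the 72 described genes, 33 overlap the span of another gene in the RefSeq table, and their values are uncertain to the extent that reads were shared.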

How the data were processed

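RNA was measured by sequencing in 11 libraries from cortex and hippocampus, prepared with the VAHTS Universal V6 kit and run on a NovaSeq X Plus, per the labels' protocols. Tissue was lysed with cycloheximide and the anti-GFP beads were washed in high salt, per the labels' protocols. The authors deposited TPM for 77179 gene IDs in 1 table. The tools named in the submitters' processing notes are fastp 1.0.1, Salmon 1.10.0 and DESeq2 1.46.0, with genome build mm39. The sources used here do not give the annotation, the gene summary or the strand setting. No count test could be run on TPM, which keeps no depth.

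Gene IDs were matched to symbols from RefSeq (50886 matched). The 19008 genes that reached 1 TPM in 2 or more libraries were tested on log2(TPM + 1) with limma 3.58.1 in R 4.3.3. Each group had its own mean in 1 fit of the 11 libraries, leaving 7 residual degrees of freedom, with moderated variances following a trend on mean level and Benjamini-Hochberg adjustment over all genes tested. The difference of weekly steps was a contrast in the same fit. The procedure was tested on simulated data. Scripts ran in Python 3.11.15.

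The rule allowed every channel gene to be named. Values per library are given for the 12 highest in the IP and for the 8 largest rises and 8 largest falls at adjusted p below 0.05 in any of 4 comparisons with at least 5 TPM in the higher group (38 genes). Results of some members are not reported here, although counts and sums over the members include them. Per-library values of Kcnmb2, Kcnj8, Akap5 and Pvalb, and the values of Aldh1l1 and Gfap, were added after their values were seen. The members, class lists, partner genes and cell type markers were chosen with earlier results of these data known.

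Alternatives were pseudocounts of 0.1 and 5 TPM, no filter or a floor of 5 TPM on the mean, quantile normalisation, median-of-ratios scaling, leaving ribosomal protein, mitochondrial and haemoglobin genes out of the scaling, no variance trend, a replicate block, a fit of only the groups compared, and each library left out. For the partner genes they were added after the data were seen. No input was analysed at P14 or P21.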

Additional observations from a re-analysis of the deposited data

Results flagged for a closer look

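For 8 genes the change from P14 to P21 went against that from P7 to P14, both steps were called, and so was their difference by limma. The share of all genes with this course was not counted. Among all genes tested, 26.7% rose in the first step and 19.7% fell in the second, so the count of 8 is a description only. Opposite steps add up in that difference, so its call is no separate support. The difference (second step minus first, log2 scale) was -1.28 ± 0.16, adjusted p = 0.000574 for Kcng1, -0.95 ± 0.14, adjusted p = 0.00134 for Kcnk9, -0.89 ± 0.22, adjusted p = 0.016 for Kcnt2 and -0.81 ± 0.13, adjusted p = 0.00168 for Kcnn2. It was -0.71 ± 0.20, adjusted p = 0.0239 for Kcnq3, -0.67 ± 0.14, adjusted p = 0.00803 for Kcnn3, -0.64 ± 0.14, adjusted p = 0.00985 for Kcnk2 and -0.56 ± 0.15, adjusted p = 0.0232 for Kcnh7. All 8 rose and then fell, with P14 the highest age. The call on the difference was lost for Kcnq3 without any 1 P14 IP replicate (adjusted p from 0.0526 to 0.0937), for Kcnt2 without P14 IP replicate 3 (adjusted p = 0.0629) and for Kcnh7 without P14 IP replicate 1 or 3 (adjusted p from 0.0761 to 0.0849). Both steps share the P14 libraries.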

How the results depend on the processing

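Of 212 called values of the described genes, 154 kept their direction and call under every one of the 21 settings that gave a value (24 of 42 for P7 IP against input, 46 of 55 for P7 to P14, 12 of 26 for P14 to P21, 47 of 52 for P7 to P21 and 25 of 37 for the difference of steps), and 58 lost the call under at least 1. The mean of at least 5 TPM gave a value for only 169 of the 216 values followed, of which 4 were not called. For P7 IP against input the 8 higher and 34 lower genes became 26 and 22 under median-of-ratios scaling and 25 and 20 under quantile normalisation, and 20 were lower with a mean of at least 5 TPM, where fewer genes were tested. From P14 to P21, 20 genes were higher under median-of-ratios scaling and 8 lower with no filter, and from P7 to P21 8 were lower with a mean of at least 5 TPM. The 2 scalings moved the median of all genes by 0.127 and 0.106 for the difference of steps. With each library left out, counts were 6 to 11 higher and 31 to 35 lower for P7 IP against input, 40 to 48 and 7 to 9 for P7 to P14, 8 to 14 and 6 to 16 for P14 to P21, 37 to 41 and 11 to 13 for P7 to P21, and 2 to 3 and 25 to 36 for the difference of steps. For the partner genes, 1 lower gene from P7 to P14 became 4 under median-of-ratios scaling, 4 under quantile normalisation, 2 after rescaling without mitochondrial, haemoglobin and ribosomal protein genes, 2 with no variance trend and 3 with the replicate block. From P14 to P21 each of the 2 scalings gave 1 higher and 1 lower partner gene, and leaving out libraries 1 to 5 lower. From P7 to P21 leaving out libraries gave 3 to 5 lower. The cause was not tested.

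Called values of P7 IP minus input that changed sign under median-of-ratios scaling were Kcna6 (0.17), Kcnab2 (0.064), Kcnd2 (0.11) and Kcnk10 (0.061). Under quantile normalisation they were Kcna5 (0.010), Kcnb2 (0.052), Kcnd1 (0.033), Kcnd2 (0.025), Kcnh1 (0.14), Kcnj11 (0.088), Kcnk10 (0.23) and Kcnk13 (0.045). Whether the replicate numbers pair the IP libraries was not settled. Libraries with the same number had correlations of deviations from their group means of 0.024 to 0.30, and those with different numbers -0.23 to 0.19. Not every library correlated best with its own number. A fit with the replicate number as a block gave 8 higher and 37 lower for P7 IP against input, 48 and 8 for P7 to P14, 12 and 15 for P14 to P21, 39 and 12 for P7 to P21 and 3 and 37 for the difference of steps. Kcna6 from P7 input (adjusted p = 0.056), Kcns1 from P7 to P21 (adjusted p = 0.0621) and the steps of Kcna5 (adjusted p = 0.062) lost their call under the block. Depth is unknown, and genes below about 1 TPM could not be followed.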
